A study of Homo sapiens with 12 samples.

Results

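RNA decay in human cells relies on several machines that DIS3L2 works beside. The RNA exosome, which is built around a barrel of EXOSC subunits, degrades RNA from the 3′ end. It is fed in the nucleus by the helicase MTREX and in the cytoplasm by the SKI complex. Other messages lose their poly(A) tail to the PAN2-PAN3 and CCR4-NOT deadenylases, lose their cap to DCP2, and are then digested from the 5′ end by XRN1. Nonsense-mediated decay (NMD) sends messages with premature stop codons into these routes through the UPF and SMG proteins and the exon junction complex. DIS3L2 is a cytoplasmic exonuclease that digests uridylated RNA from the 3′ end without the exosome.

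The mRNAs described here are those of 47 named factors of the exosome and its cofactors, of decapping and 5′ decay, of deadenylation and of NMD, out of 60483 genes counted. They were chosen by name, and all 47 were found, on 18 chromosomes, and passed the filter on low counts. The cells were HEK293, an established human embryonic kidney line, in 2 forms. The mut cells produced a catalytic mutant of DIS3L2 and the WT cells wild-type DIS3L2, each recoded, FLAG-tagged and integrated through Flp-In T-REx. Both forms carried short hairpins in the same vector against the endogenous DIS3L2 mRNA, and both had received doxycycline at 100 ng/ml for 3 days. Each form has 3 total RNA libraries (rRNA-depleted, stranded), and whether replicates or forms were separate cultures or clones is not given in the sources used here, so p-values measure the spread between libraries, which may be technical.

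Reads counted in genes ranged from 8315986 to 12675042 per library. Reads assigned to no annotated feature made up 12.3% to 13.7% of all deposited counts in mut libraries and 16.6% to 19.4% in WT libraries, without overlap. Whether they fell within introns or between genes is not given in the sources used here. Their part in the results below was not tested. DIS3L2 itself averaged 1092 ± 51.6 library-scaled counts (CPM) in mut and 784 ± 25.8 CPM in WT (SD, n = 3 each), and the deposited counts do not separate transgene from endogenous reads. Reads falling on more than 1 gene were 8.60% to 9.86% of these counts in mut and 6.90% to 8.28% in WT, also without overlap. The HEK293-associated genes NEFL, INA, KRT8, KRT18 and VIM were counted in all 6 libraries and were each called higher in mut (log2 0.18 to 0.55), while NEFM had at most 4 counts. Of genes of other lineages, CD3E, HBB, COL1A2 and DCN had 0 counts, PTPRC, ALB and APOA1 at most 3, and COL1A1, COL3A1 and PDGFRA 3 to 32, with COL1A1 and COL3A1 called higher in mut. The part of these shifts in the results was not tested, and in bulk RNA fewer cells of a kind and less RNA per cell cannot be told apart.

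Within the SKI, UPF and SMG1 groups, single subunits were called in opposite directions, and the factors as a list had the median of all genes. Whether such splits are more frequent here than among other genes grouped in the same way was not tested. Of the 47 mRNAs, 9 were higher in mut (19.15% of members) and 5 were lower (10.64%). Among all 14409 genes tested, 13.0% were higher and 14.2% were lower, so the share of factors called in either direction (29.79%) was near that of all genes (27.18%). Calls are at an adjusted p under 0.05 in edgeR's quasi-likelihood test, with Benjamini-Hochberg adjustment over all genes tested. The median log2 fold change (mut over WT) was -0.01 over the members and -0.01 over all genes. Single factors ran from -0.46 for UPF3B to 0.47 for EDC4, and no factor differed by more than 1.5-fold. All 3 mut libraries lay above all 3 WT libraries for 11 factors and below them for 7, against 19.4% and 21.2% of all genes tested.

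The 9 higher mRNAs were EDC4, SKIC8, EXOSC6, SMG9, MTREX, EXOSC5, UPF1, LSM3 and CASC3. The 5 lower ones were UPF3B, PAN3, SKIC3, SMG1 and UPF2. Of these 14, EDC4, SKIC8, EXOSC6, MTREX, SKIC3, PAN3 and SMG1 passed the test in each of 11 other ways of processing the counts, including the fits that left out each library in turn. The other 7 lost the call in at least 1 of them. Without WT library 1 only 4 factors were called higher, without WT library 3 only 5, and 3 were called lower without mut library 1 or without WT library 3. The share of all genes called in each fit that left out a library is not given here. Whether these drops are particular to the factors was not tested. DESeq2 called 8 higher and 3 lower, against 8.47% and 8.82% of the genes it tested.

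**Figure D1:**
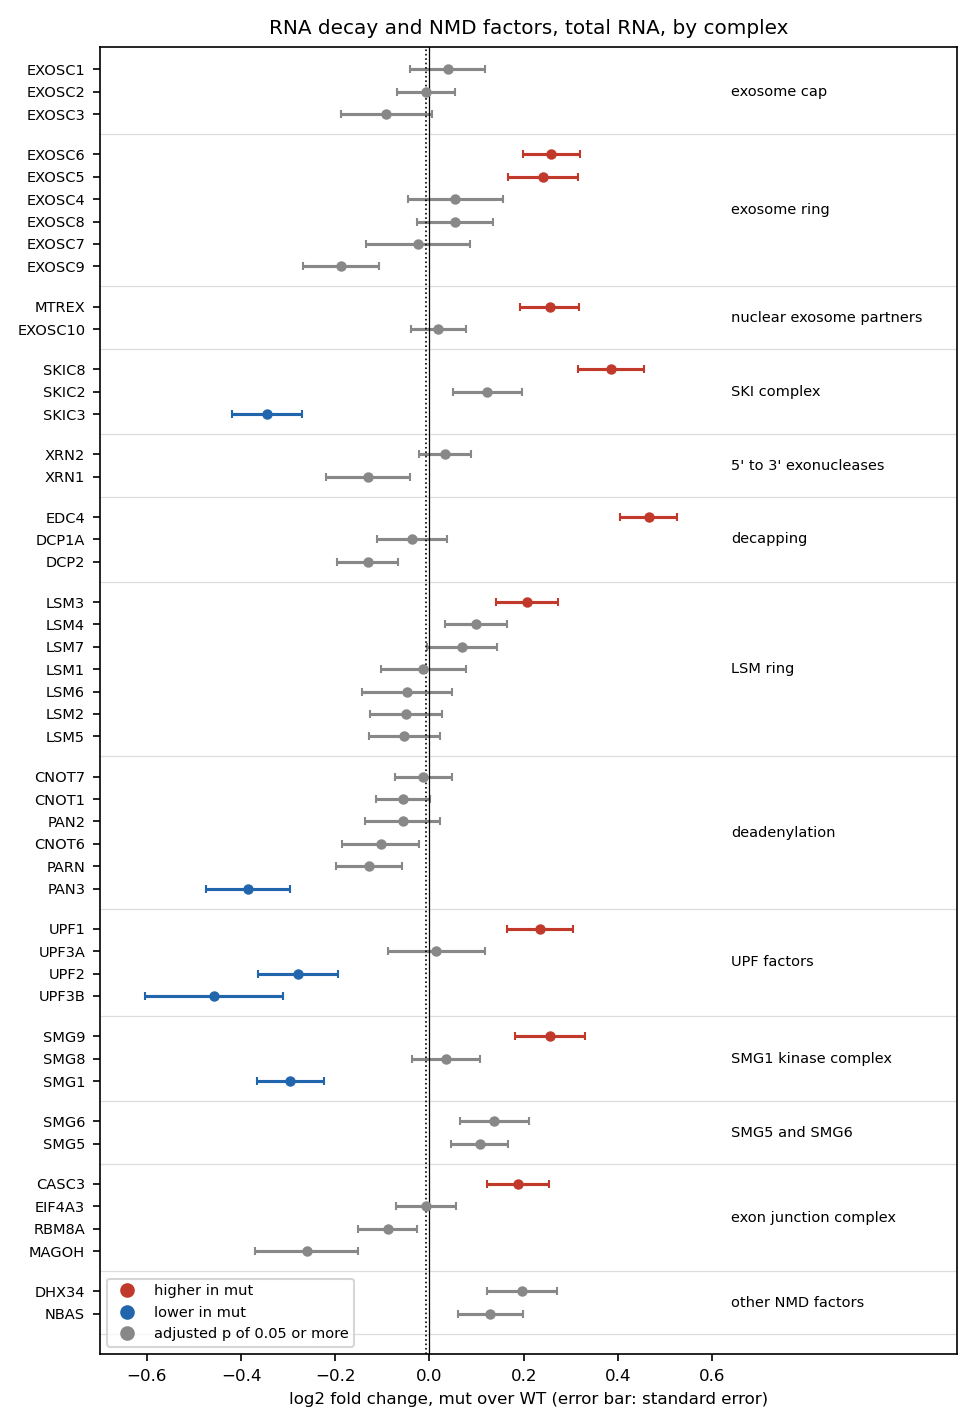
Log2 fold change (mut over WT, horizontal axis) of each of the 47 factors in total RNA, grouped by complex, with standard errors; the dotted line is the median of all genes tested. The 9 factors higher in mut and the 5 lower ones are spread over the complexes, and the SKI, UPF and SMG1 groups hold both kinds.

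**Figure D2:**
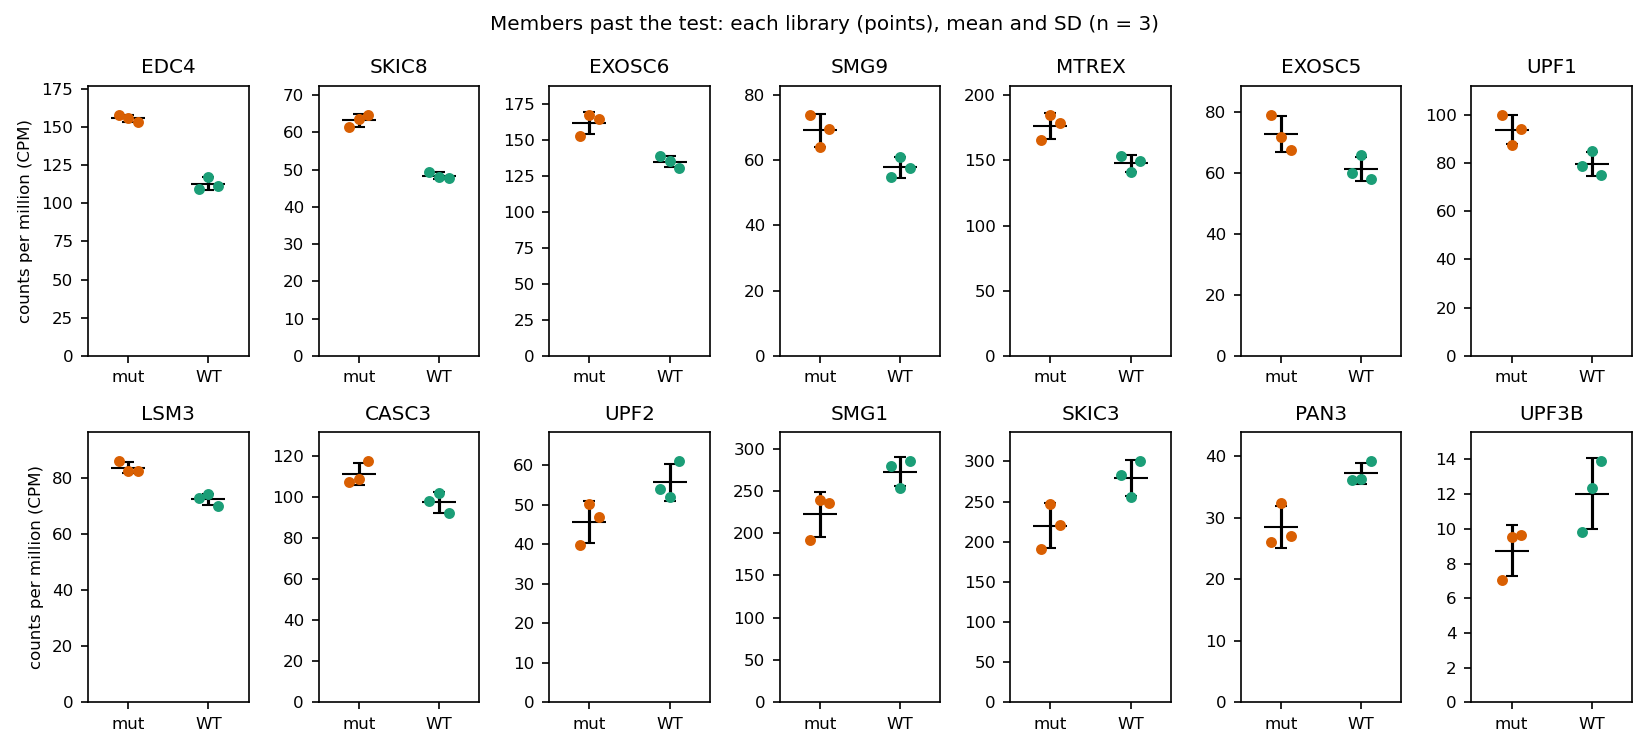
CPM (vertical axis, from 0) of the 14 factors past the test in each mut and WT library, with the mean and SD of 3 libraries. The mut and WT points do not overlap in any panel, and UPF3B comes closest, with 9.65 CPM in the highest mut library and 9.82 CPM in the lowest WT library.

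Of the 9 subunits that form the exosome barrel, 2 ring subunits were called, both higher in mut. EXOSC6, a subunit of the ring of RNase PH-like proteins, was counted at 153, 167 and 165 CPM in the mut libraries and at 139, 135 and 131 CPM in the WT libraries. Its log2 fold change was 0.26 (SE 0.06, edgeR adjusted p = 0.0024). EXOSC5, another ring subunit, had 79.2, 71.9 and 67.7 CPM in mut, against 60.2, 65.9 and 58.2 CPM in WT. It was 1.18-fold higher (log2 0.24, SE 0.07, edgeR adjusted p = 0.017), with the call lost when mut library 1, WT library 1 or WT library 3 was left out (adjusted p of 0.0714, 0.0739 and 0.0714). The groups did not overlap for either gene.

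The other 4 ring subunits were not called. EXOSC4, EXOSC7 and EXOSC8 lay within 0.06 of zero on the log2 scale, with overlapping libraries. EXOSC9, also of the ring, had 47.5, 47.7 and 48.4 CPM in mut, against 61.3, 49.8 and 52.7 CPM in WT (log2 -0.19, SE 0.08, edgeR adjusted p = 0.083). Every mut library was below every WT library there, and its 20 chromosomal neighbours had a median log2 fold change of -0.23. EXOSC9 overlaps CCNA2 on the opposite strand, and the strand setting of the counting is not given in the sources used here. The RNA-binding cap subunits EXOSC1, EXOSC2 and EXOSC3 ranged from -0.09 to 0.04, with overlapping libraries and adjusted p of 0.52 to 0.94.

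Among the partners of the nuclear exosome, the helicase MTREX, which unwinds RNA and threads it into the barrel, was higher in mut. It had 166, 185 and 179 CPM in mut, against 153, 141 and 149 CPM in WT, or 0.26 on the log2 scale (SE 0.06, edgeR adjusted p = 0.0031). MTREX lies on chromosome 5 (GRCh38, 55307989 to 55425579), where 10 of its 20 nearest tested protein-coding genes were also called higher and 0 lower, with a median of 0.27. EXOSC10, the nuclear exonuclease of the same machine, averaged 154 ± 1.77 CPM in mut, against 151 ± 3.04 CPM in WT (log2 0.02, SE 0.06, edgeR adjusted p = 0.85).

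The 3 subunits of the SKI complex, the cytoplasmic helicase assembly that delivers messages to the exosome, had 1 member higher, 1 lower and 1 not called. SKIC8 (WDR61), the WD-repeat subunit, had 61.4, 63.5 and 64.7 CPM in mut, against 49.4, 48.0 and 47.7 CPM in WT. That is 1.31-fold higher (log2 0.39, SE 0.07, edgeR adjusted p = 0.00018). SKIC3 (TTC37), the tetratricopeptide scaffold, had 191, 247 and 221 CPM in mut, against 283, 256 and 300 CPM in WT. Its log2 fold change was -0.34 (SE 0.07, edgeR adjusted p = 0.00099), with all mut libraries below the WT libraries. SKIC2 (SKIV2L), the helicase itself, averaged 75.1 ± 4.70 CPM in mut, against 68.7 ± 5.02 CPM in WT (log2 0.12, SE 0.07, edgeR adjusted p = 0.22).

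Both SKI calls shared their direction with the genes around them. SKIC8 lies on chromosome 15 (78283235 to 78299609), where 11 of 20 neighbours were called higher and 0 lower, with a median log2 fold change of 0.26. SKIC3 lies on chromosome 5 (95463894 to 95554977), where 9 of 20 were called lower and 0 higher, with a median of -0.28. What part of the SKIC8 and SKIC3 values goes with their chromosome segments was not tested.

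Among the 5′ to 3′ exonucleases neither mRNA was called. XRN1, the cytoplasmic enzyme, had 56.3, 77.5 and 66.1 CPM in mut, against 72.6, 66.7 and 80.2 CPM in WT (log2 -0.13, SE 0.09, edgeR adjusted p = 0.29). XRN2, its nuclear counterpart, had 278, 282 and 277 CPM in mut, against 277, 273 and 268 CPM in WT (log2 0.03, SE 0.05, edgeR adjusted p = 0.70).

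The largest rise and the smallest adjusted p of all 47 factors belonged to EDC4, the scaffold that brings DCP2 to its activators in processing bodies. EDC4 (ENSG00000038358.13, chromosome 16, 67873052 to 67884499) had 158, 156 and 153 CPM in mut, against 109, 118 and 111 CPM in WT, with every mut library above every WT library. The rise was 1.38-fold (log2 0.47, SE 0.06, edgeR adjusted p = 2.9e-06). The median of its 20 neighbours was 0.09, with 2 of them called higher and 0 lower. Across the 11 alternatives its log2 fold change stayed between 0.42 and 0.50, with adjusted p of 1.45e-10 to 8.15e-05.

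The decapping enzyme and its activator, which with EDC4 and the LSM ring make up the decapping factors among the 47, were not called. DCP2, the enzyme, had 210, 251 and 230 CPM in mut, against 259, 236 and 261 CPM in WT (log2 -0.13, SE 0.06, edgeR adjusted p = 0.14). DCP1A, the activating subunit, averaged 58.9 ± 3.19 CPM in mut, against 60.7 ± 4.61 CPM in WT (log2 -0.04, SE 0.08, edgeR adjusted p = 0.75). Both overlapped between the groups. Of 9 further decapping genes outside the 47, 1 was called higher (11.11%) and 3 lower (33.33%), against 13.0% and 14.2% of all genes tested. The higher gene was EDC3 (log2 0.21, edgeR adjusted p = 0.043). The lower ones were DCP1B at -0.35, LSM14A at -0.22 and LSM8, with edgeR adjusted p of 0.024, 0.023 and 0.038. DESeq2 called none of these 4 (adjusted p = 0.132 for EDC3, 0.14 for DCP1B, 0.0667 for LSM14A and 0.131 for LSM8). The neighbours of EDC3 had a median log2 fold change of 0.40, with 15 of 20 called higher and 0 lower. Neighbour medians were -0.02 for DCP1B, 0.002 for LSM14A and -0.07 for LSM8. With single libraries left out, EDC3 was called only without mut library 2 (adjusted p otherwise 0.0544 to 0.126). DCP1B lost its call when mut 3, WT 2 or WT 3 was left out (adjusted p up to 0.189), and LSM14A when mut 1, WT 1 or WT 3 was (adjusted p up to 0.142).

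LSM1 to LSM7 form the cytoplasmic ring that binds the 3′ end of deadenylated mRNA, and 6 of them also serve the nuclear ring on U6 snRNA. LSM3 alone was called, at 85.9, 82.3 and 82.5 CPM in mut, against 72.7, 74.2 and 70.2 CPM in WT. It was 1.15-fold higher (log2 0.21, SE 0.07, edgeR adjusted p = 0.020), and the call was lost without the filter on low counts (adjusted p = 0.0612), with the replicate block (adjusted p = 0.0624) and when WT library 1 or 3 was left out (adjusted p of 0.0681 and 0.0716). The other 6 ranged from -0.05 to 0.10 on the log2 scale, with overlapping libraries. LSM1, which is specific to the cytoplasmic ring, averaged 31.6 ± 3.69 CPM in mut, against 31.9 ± 1.58 CPM in WT. LSM8, the subunit specific to the nuclear ring and not one of the 47, averaged 39.5 ± 3.68 CPM in mut, against 46.3 ± 1.49 CPM in WT, and was called lower (log2 -0.23, SE 0.08, edgeR adjusted p = 0.038), a call lost in DESeq2 (adjusted p = 0.131), with the replicate block (adjusted p = 0.0586) and in 4 of the 6 fits that left out a library (adjusted p up to 0.21, without mut library 1).

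Of the 6 deadenylation factors among the 47, PAN3 was called, lower in mut. PAN3, the adaptor subunit that ties the PAN2 deadenylase to poly(A)-binding protein, had 26.0, 32.4 and 27.0 CPM in mut, against 36.2, 36.3 and 39.2 CPM in WT. Its log2 fold change was -0.38 (SE 0.09, edgeR adjusted p = 0.0021), with no overlap, and its neighbours on chromosome 13 had a median of -0.10. PAN2, the catalytic partner, had 45.9, 42.9 and 38.7 CPM in mut, against 43.6, 45.7 and 43.0 CPM in WT (log2 -0.06, SE 0.08, edgeR adjusted p = 0.63). CNOT1, the scaffold of CCR4-NOT, its catalytic subunits CNOT6 and CNOT7, and the cap-sensitive deadenylase PARN ranged from -0.13 to -0.01, with overlapping libraries and adjusted p of 0.18 to 0.90. The 14 further deadenylation genes outside the 47 had values of both signs, with 1 called higher (BTG2) and 2 lower (CNOT4, and CNOT2, which lost its call without WT library 3, adjusted p = 0.0716). That is 7.14% and 14.29% of the 14, against 13.0% and 14.2% of all genes tested.

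In NMD, the central helicase and its bridge to the exon junction complex differed in opposite directions. UPF1, the helicase that marks a message for decay, had 99.9, 87.6 and 94.0 CPM in mut, against 78.7, 85.0 and 75.0 CPM in WT. It was 1.18-fold higher (log2 0.23, SE 0.07, edgeR adjusted p = 0.014). UPF2, which activates UPF1, had 39.8, 50.3 and 47 CPM in mut, against 54.0, 51.9 and 60.9 CPM in WT (log2 -0.28, SE 0.09, edgeR adjusted p = 0.016). UPF3B, the X-linked bridge between UPF2 and the exon junction complex, had 7.03, 9.51 and 9.65 CPM in mut, against 9.82, 12.4 and 13.9 CPM in WT (log2 -0.46, SE 0.15, edgeR adjusted p = 0.021). The groups did not overlap for any of these genes, although the UPF3B groups nearly touched.

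Each UPF call depended on single libraries. UPF1 was not called when WT library 1 or 3 was left out (adjusted p of 0.0594 and 0.0699). UPF2 was not called without mut library 1 (adjusted p = 0.131) or WT library 3 (adjusted p = 0.141), nor by DESeq2 (adjusted p = 0.0511). UPF3B was not called when mut library 1, WT library 2 or WT library 3 was left out (adjusted p of 0.148, 0.0553 and 0.123), nor by DESeq2 (adjusted p = 0.112), and it is the lowest-counted of the 47, with 63 to 158 reads per library. UPF3A, the paralog of UPF3B, had 19.1, 17.4 and 17.1 CPM in mut, against 16.3, 17.9 and 18.9 CPM in WT (log2 0.01, SE 0.10, edgeR adjusted p = 0.94). The difference between the UPF3A and UPF3B changes was not tested.

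The kinase that phosphorylates UPF1 also split from a partner. SMG1, the kinase, had 192, 239 and 236 CPM in mut, against 280, 253 and 285 CPM in WT (log2 -0.29, SE 0.07, edgeR adjusted p = 0.0026). SMG9, a regulatory partner of SMG1, had 73.8, 63.9 and 69.6 CPM in mut, against 54.7, 61.0 and 57.6 CPM in WT (log2 0.26, SE 0.07, edgeR adjusted p = 0.011), a call lost without WT library 1 (adjusted p = 0.077). SMG8, the other partner, averaged 72.1 ± 3.67 CPM in mut, against 70.4 ± 5.11 CPM in WT (log2 0.04, SE 0.07, edgeR adjusted p = 0.75). Both called genes differed in sign from the median of their neighbours, which was 0.12 around SMG1 on chromosome 16 and -0.21 around SMG9 on chromosome 19. Of 20 neighbours, 2 were called higher and 2 lower around SMG1, and 0 higher and 7 lower around SMG9.

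SMG1 has near-identical partial copies on chromosome 16, so its value is uncertain where reads were split or dropped. The 7 pseudogenes SMG1P1 to SMG1P7 together held 618, 554 and 574 reads in mut and 651, 832 and 605 in WT. That is 24.05% (WT library 1) to 35.97% (mut library 1) of the SMG1 count in a library. The share was higher in each mut library than in any WT library. SMG1P3 was also called lower (log2 -0.29, edgeR adjusted p = 0.041). Not called were SMG1P6, SMG1P4 and SMG1P5, at -0.43, -0.23 and -0.17 (edgeR adjusted p of 0.095, 0.62 and 0.39). SMG1P7, SMG1P1 and SMG1P2 were not called either, at 0.20, 0.18 and 0.14 (edgeR adjusted p of 0.13, 0.36 and 0.66). The 15 annotated copies of other members found by symbol had at most 3 reads in any library.

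The effectors downstream of UPF1 were not called. SMG6, the endonuclease of NMD, had 52.8, 53.8 and 55.0 CPM in mut, against 49.3, 50.9 and 46.2 CPM in WT (log2 0.14, SE 0.07, edgeR adjusted p = 0.16), and SMG5, the adaptor that recruits decay enzymes, was at 195 ± 8.35 CPM in mut, against 181 ± 8.87 CPM in WT (log2 0.11, SE 0.06, edgeR adjusted p = 0.20). The helicase DHX34 had 80.4, 75.9 and 74.7 CPM in mut, against 63.1, 74.9 and 62.5 CPM in WT, just outside the threshold (log2 0.20, SE 0.07, edgeR adjusted p = 0.051). NBAS, which acts in NMD at the endoplasmic reticulum, was at 87.0 ± 3.83 CPM in mut, against 79.6 ± 4.91 CPM in WT (log2 0.13, SE 0.07, edgeR adjusted p = 0.17).

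Of the exon junction complex, which marks spliced junctions, CASC3 was the 1 subunit called. It had 107, 109 and 117 CPM in mut, against 97.9, 102 and 92.0 CPM in WT (log2 0.19, SE 0.07, edgeR adjusted p = 0.034), the largest adjusted p among the 14, lost in 6 of the 11 alternatives, among them DESeq2 (adjusted p = 0.0599), the replicate block (adjusted p = 0.0856) and 3 fits that left out a library (adjusted p = 0.123 for mut 3, 0.0945 for WT 1 and 0.132 for WT 3). MAGOH had 15.97, 16.2 and 21.6 CPM in mut, against 21.8, 21.6 and 20.9 CPM in WT (log2 -0.26, SE 0.11, edgeR adjusted p = 0.078). Its near-identical paralog MAGOHB was at -0.02 (edgeR adjusted p = 0.88). MAGOH's partner RBM8A and the helicase core EIF4A3 lay at -0.09 and -0.01, with adjusted p of 0.32 and 0.95.

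Counts of partners taken as ratios within a library do not depend on the scaling between libraries. The SKIC8 to SKIC3 count ratio was 0.321, 0.257 and 0.292 in mut and 0.174, 0.188 and 0.159 in WT. The SMG9 to SMG1 ratio was 0.385, 0.268 and 0.295 in mut and 0.195, 0.241 and 0.202 in WT. The UPF1 to UPF2 ratio was 2.51, 1.74 and 2 in mut and 1.46, 1.64 and 1.23 in WT. All 3 ratios were higher in every mut library than in any WT library. The pairs were picked because their members were called in opposite directions, so the order of the groups is a description and carries no test.

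**Figure D3:**
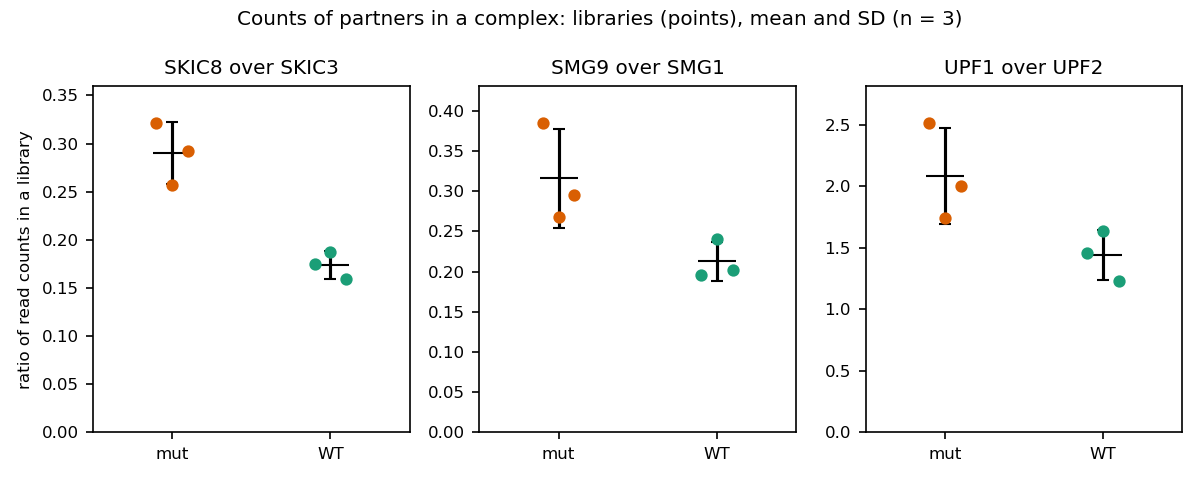
Ratio of read counts within each library (vertical axis, from 0) for SKIC8 over SKIC3, SMG9 over SMG1 and UPF1 over UPF2, with points for libraries and the mean and SD of 3. The mean ratios were 0.290 in mut and 0.174 in WT for the SKI pair, 0.316 and 0.213 for the SMG pair, and 2.09 and 1.44 for the UPF pair.

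The libraries of each group were not equally far apart for the 5 lower mRNAs. Within the mut group, library 1 was the lowest of the 3 for each of UPF3B, PAN3, SKIC3, SMG1 and UPF2, and within the WT group library 3 was the highest for each. That order, noticed after the values were seen, was also that of 5 of the 33 factors not called (XRN1, DCP1A, DCP2, CNOT1 and RBM8A), of 0 of the 9 higher factors and of 15.8% of all genes tested. Its share among all genes called lower is not given here, so whether it is particular to these factors was not tested. The direction of the difference was the same without either library, while the number called lower was 3 without mut library 1 and 3 without WT library 3, when UPF2 and UPF3B were the ones lost.

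The 5 lower genes were also long. Their spans ran from 47653 to 157143 bp, with a median of 121549 bp, against 5163 to 117591 bp and a median of 22306 bp for the 9 higher genes. The 33 factors not called had a median of 16841 bp and included the longest of all, NBAS, at 782426 bp. Log2 fold change and span had a Spearman coefficient of -0.24 across the 47 factors and of -0.23 across 12096 protein-coding genes, which share the same 6 libraries. With the trend on span removed from each library, all 14 calls remained, SMG6, NBAS and DHX34 were also called higher, and EXOSC9 and MAGOH lower. That made 12 higher and 7 lower, against 14.3% and 13.3% of all genes in that fit.

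**Figure D4:**
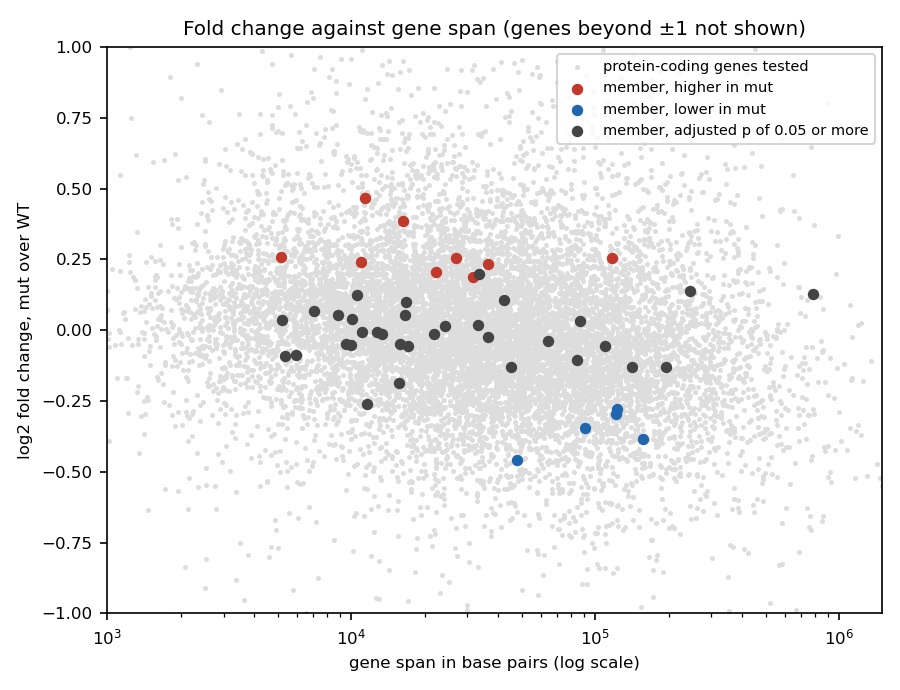
Log2 fold change (mut over WT) against gene span in base pairs on a log axis, with the 12096 tested protein-coding genes in grey and the 47 factors in colour. The 5 lower factors lie between 47653 and 157143 bp, and the longest of the 9 higher ones is MTREX, at 117591 bp.

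The values of the factors went in part with those of their chromosomal neighbours. Across the 47 factors, the log2 fold change and the median of the nearest tested protein-coding genes (10 on each side where present) had a Spearman coefficient of 0.48. Of the 14 called factors, 10 had neighbours whose median had the same sign, and 5 lay within 0.15 of that median (EXOSC5, MTREX, SKIC3, SKIC8 and UPF1). Another 5 lay more than 0.3 from it, EDC4 and SMG9 above and UPF2, UPF3B and SMG1 below. Around EXOSC5, 1 of 20 neighbours was called higher and 0 lower, and around UPF1 1 higher and 1 lower. Around MTREX and SKIC8, 10 and 11 of 20 were called higher, and around SKIC3 9 were called lower. The same measures over all genes are not given here, so whether they are particular to the factors was not tested. What part of each value goes with its segment was not tested.

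**Figure D5:**
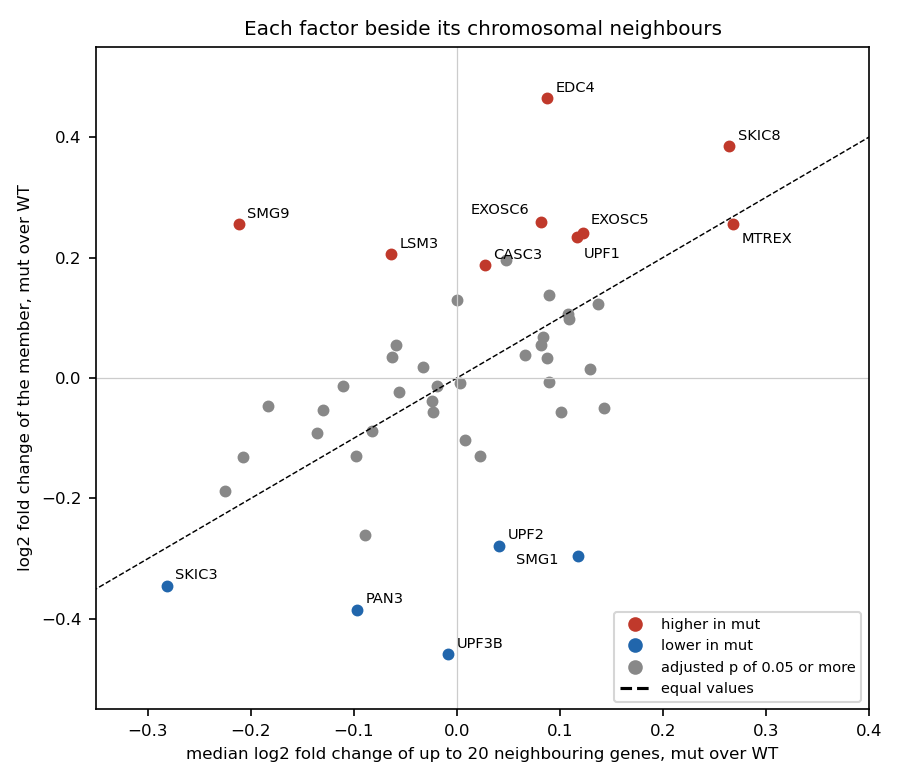
Log2 fold change of each factor (vertical axis, mut over WT) against the median of its neighbouring tested protein-coding genes (horizontal axis), with the dashed line marking equal values. MTREX and SKIC3 lie near the line, while EDC4 and SMG9 lie above it and UPF2, UPF3B and SMG1 below it.

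The promoters of the split pairs are shown because the partners in each pair belong to the same complex and were called in opposite directions. The sequences are from RefSeq (GRCh38.p14), 250 bases before the start of each gene, read 5′ to 3′ on the gene's strand. They are chr15:78299610-78299859 (minus) for SKIC8, chr5:95554978-95555227 (minus) for SKIC3, chr19:43754963-43755212 (minus) for SMG9, chr16:18926409-18926658 (minus) for SMG1, chr19:18831709-18831958 (plus) for UPF1 and chr10:12043171-12043420 (minus) for UPF2. Capitals mark matches, on either strand, to the GC box GGGCGG, the CCAAT box CCAAT, the ETS core CCGGAAG, the E-box CACGTG and the TATA box TATAAA. Neighbouring matches can overlap or abut.
SKIC8: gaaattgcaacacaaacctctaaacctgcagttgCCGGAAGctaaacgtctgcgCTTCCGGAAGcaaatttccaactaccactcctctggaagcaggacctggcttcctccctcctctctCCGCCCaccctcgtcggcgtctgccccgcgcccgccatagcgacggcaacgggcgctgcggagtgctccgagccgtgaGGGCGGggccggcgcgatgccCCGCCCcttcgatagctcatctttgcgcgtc
SKIC3: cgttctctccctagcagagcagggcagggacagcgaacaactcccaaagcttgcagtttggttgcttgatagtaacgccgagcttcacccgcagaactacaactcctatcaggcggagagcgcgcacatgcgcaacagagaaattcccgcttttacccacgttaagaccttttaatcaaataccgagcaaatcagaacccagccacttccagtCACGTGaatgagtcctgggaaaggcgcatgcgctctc
SMG9: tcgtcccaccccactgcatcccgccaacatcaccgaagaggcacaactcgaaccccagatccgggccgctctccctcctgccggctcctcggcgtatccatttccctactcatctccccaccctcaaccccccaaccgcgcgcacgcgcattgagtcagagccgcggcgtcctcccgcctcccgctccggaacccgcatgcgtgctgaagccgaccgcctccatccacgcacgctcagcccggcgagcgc
SMG1: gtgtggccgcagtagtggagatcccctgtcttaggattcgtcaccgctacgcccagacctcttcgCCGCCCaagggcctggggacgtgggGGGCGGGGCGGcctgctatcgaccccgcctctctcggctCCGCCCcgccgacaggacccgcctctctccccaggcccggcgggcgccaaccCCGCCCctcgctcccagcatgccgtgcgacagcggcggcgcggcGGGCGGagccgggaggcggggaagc
UPF1: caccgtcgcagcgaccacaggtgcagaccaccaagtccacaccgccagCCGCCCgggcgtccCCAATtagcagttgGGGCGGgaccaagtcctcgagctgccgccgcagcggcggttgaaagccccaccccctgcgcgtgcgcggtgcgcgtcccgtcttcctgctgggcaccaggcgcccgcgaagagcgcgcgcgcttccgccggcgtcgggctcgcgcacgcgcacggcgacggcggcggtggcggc
UPF2: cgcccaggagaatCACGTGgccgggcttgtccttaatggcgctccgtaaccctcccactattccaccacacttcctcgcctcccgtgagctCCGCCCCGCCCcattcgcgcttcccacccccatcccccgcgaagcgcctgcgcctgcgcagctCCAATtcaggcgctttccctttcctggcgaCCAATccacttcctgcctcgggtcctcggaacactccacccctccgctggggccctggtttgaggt
SKIC8 had 3 GC boxes and 3 ETS cores in this window, and SKIC3 had 1 E-box. SMG1 had 6 GC boxes, and SMG9 had no match to any of the motifs. UPF1 had 2 GC boxes and 1 CCAAT box, and UPF2 had 2 of each and 1 E-box. The GC box was present in 30 of the 39 members with a promoter in the table (76.9%), against 56.0% of 15843 protein-coding genes, and the TATA box in 1 of 39 (2.56%), against 9.23%. The CCAAT box, the ETS core and the E-box were present in 15, 5 and 6 of the 39 members, against 34.5%, 11.8% and 7.84% of protein-coding genes. These protein-coding genes were not limited to those past the count filter, while every member passed it, so the sets compared are unlike. Of all 27305 genes with a window of this length, noncoding ones included, 42.3% held a GC box, 33.0% a CCAAT box, 8.82% an ETS core, 6.49% an E-box and 11.1% a TATA box. A match is a run of letters and does not show that a factor binds there.

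Of 43 further genes of the same pathways that are not among the 47, 5 were higher and 10 lower in mut, with a median of -0.07. That is 11.63% and 23.26%, against 13.0% and 14.2% of all genes tested. Among the exosome genes of this list, 4 of 10 were lower and 1 higher. MPHOSPH6, which docks MTREX on the exosome, had 22.2, 18.4 and 20.2 CPM in mut, against 31.7, 28.7 and 28.8 CPM in WT (log2 -0.55, SE 0.09, edgeR adjusted p = 0.00010). ZFC3H1, which takes polyadenylated nuclear RNA to the exosome with MTREX, had 33.3, 39.7 and 35.5 CPM in mut, against 53.7, 45.0 and 58.7 CPM in WT (log2 -0.53, SE 0.09, edgeR adjusted p = 0.00012). MTREX itself was higher in the same libraries. Neighbours of MPHOSPH6 and ZFC3H1 had medians of -0.06 and -0.15, with 8 of 20 called lower and 1 higher around ZFC3H1.

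The ubiquitin ligase CNOT4 was lower as well, at 24.4 ± 1.204 CPM in mut, against 33.2 ± 1.90 CPM in WT (log2 -0.43, SE 0.09, edgeR adjusted p = 0.00054). The 3 rises with the smallest adjusted p were DIS3L, the cytoplasmic exosome nuclease (log2 0.29, edgeR adjusted p = 0.0026), the NMD-linked ATPase RUVBL2 (0.23, adjusted p = 0.0071) and BTG2, an activator of deadenylation (0.31, adjusted p = 0.011). Neighbours of DIS3L and BTG2 had medians of 0.21 and 0.37. RUVBL2 and BTG2 lost the call without WT library 1 (adjusted p = 0.0542 and 0.0721), and BTG2 in DESeq2 as well (adjusted p = 0.0611). Of the 43, 2 were called higher without WT library 1, 3 without mut library 3 or WT library 2, and 5 lower without WT library 3. The shares of all genes called in those fits are not given here.

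Of 19 genes whose transcripts are known NMD targets, 4 were higher in mut (21.05%) and 1 lower (5.26%), against 13.0% and 14.2% of all genes tested. Their median was 0.04 on the log2 scale, against -0.01 for all genes. All mut libraries lay above all WT libraries for 6 of the 19 and below them for 2, against 19.4% and 21.2% of all genes tested. The snoRNA host GAS5 had 155, 150 and 140 CPM in mut, against 114, 110 and 111 CPM in WT (log2 0.41, SE 0.06, edgeR adjusted p = 1.9e-05). The transcription factor ATF3 was higher by 0.67 (SE 0.09, edgeR adjusted p = 6.0e-06) and the snoRNA host SNHG12 by 0.61 (SE 0.10, edgeR adjusted p = 7.2e-05), with neighbour medians of 0.32 and 0.01. Around GAS5 the neighbour median was 0.15, with 9 of 20 called higher and 2 lower. UPP1 was lower (log2 -0.50, SE 0.17, edgeR adjusted p = 0.030) with overlapping libraries, and lost the call in DESeq2 and in 3 fits that left out a library, mut 2, mut 3 or WT 3 (adjusted p up to 0.25). The 14 targets not called ran from -0.17 (GADD45B, edgeR adjusted p = 0.31) to 0.28 (GADD45A, edgeR adjusted p = 0.071). Gene counts do not separate the isoforms that NMD acts on.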

How the data were processed

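Total RNA of HEK293 cells producing mut or WT DIS3L2 was measured in 3 libraries each. The authors deposited raw counts of reads per Ensembl gene for these, and per feature a fragment count and an FPM signal, scaled by library, for the small RNA libraries. The submitters' processing notes list hg38, STAR 2.4.0 and HTSeq 0.6.1, with no role or order, beside CASAVA 1.8.2, FastQC 0.11.3, DESeq2 1.8.2 and SAMtools 1.2-10. No annotation version or strand setting is given in the sources used here. Rows that name no gene (57.8% to 63.2% of all deposited counts, mostly for reads with several alignments) were left out, so gene counts lack multiply aligned and ambiguous reads. Whether those rows count a read with several alignments once is not given in the sources used here, so the shares may not be shares of reads. Of the members, 24 of 47 overlap another RefSeq gene. Among the called factors these are MTREX, SKIC3, PAN3, UPF2, UPF3B, SMG1 and CASC3, and the part of ambiguous reads in their values was not tested. Exon lengths were not used here, so levels are not compared between genes.

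Counts were tested as deposited with edgeR 4.0.16 (R 4.3.3; TMM scaling, filterByExpr, quasi-likelihood F test, two-sided), after checks on simulated data. CPM use TMM-scaled library sizes. Each standard error is the absolute log2 fold change divided by the square root of F. Symbols matched 56321 of 60483 Ensembl identifiers by gene ID, and spans are those of RefSeq GRCh38.p14, by symbol. Replicates differed by more than sampling noise (chi-square per degree of freedom of 1.87 to 3.97). Alternatives were RLE size factors, no count filter, DESeq2 1.42.0, leaving out each library, a block on replicate number and removal of the span trend (lowess per library). Every member past the test was named with its values. Of other pathway genes and NMD targets, up to 3 with the smallest adjusted p in each direction were named, and LSM8, MAGOHB, EDC3, DCP1B, LSM14A, CNOT2, GADD45A and GADD45B were added after their values were seen. Members, lists and alternatives were chosen with earlier results of these data known.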

Additional observations from a re-analysis of the deposited data

How the results depend on the processing

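Of the 14 calls among the 47 factors, 7 held under all 11 alternatives, and none of the 517 alternative values of the factors reversed a called direction. With the replicate number as a replicate block, 7 factors were higher and 5 lower, and 3 and 8 of the 43 further pathway genes. Same-numbered libraries did not deviate together (correlations of -0.09, -0.07 and 0.03). That cannot settle whether the numbers pair the samples, because sampling noise also lowers such correlations. DESeq2 called 3 factors lower, and 3 further genes higher and 6 lower. Without the count filter 3 further genes were higher, and with the span trend removed 8 were. Leaving out each library gave 4 to 10 factors higher and 3 to 7 lower, and 2 to 5 further genes higher and 5 to 9 lower. Shares of all genes called in these fits, with the replicate block and without the count filter are not given here. Depth limits the low genes most. UPF3B had the largest standard error of the 47 (0.15), so changes of its size are near the limit of detection for genes counted that low, while the smallest was 0.05 (XRN2). Genes not called are not shown to be equal in the 2 forms.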

Other observations

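In the small RNA libraries, sized at 20 to 200 nt, the features listed inside the 47 genes held few fragments, apart from those in CNOT1. Only listed features were counted, so fragments from elsewhere in these genes are not covered. CNOT1 hosts 2 box H/ACA snoRNAs, a class that guides pseudouridylation, on chromosome 16 (hg38). SNORA50A (58559796 to 58559929 in the deposited files) had an FPM signal of 188, 303 and 167 in mut and 192, 213 and 350 in WT, from 84 to 370 fragments, with overlapping groups. SNORA46 (58548499 to 58548633) had 24.9, 15.6 and 17.9 FPM in mut and 15.5, 14.2 and 15.4 FPM in WT, from 7 to 19 fragments. No test was run on these counts. In total RNA, SNORA46 was at 15.2, 25.5 and 14.4 CPM in mut and 8.89, 9.94 and 5.04 CPM in WT (log2 1.15, SE 0.19, edgeR adjusted p = 5.6e-05), while its host CNOT1 was at -0.06 (SE 0.06, edgeR adjusted p = 0.50). SNORA50A is listed at 0 in all 6 total RNA libraries under both of its Ensembl identifiers, which share a position. In the other members no feature had more than 6 fragments in any small RNA library.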
